A study of Mus musculus with 36 samples.

Results

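The 10 genes described here encode the hepatic proteins that export, esterify and take up cholesterol: the transporters Abcg5, Abcg8 and Abca1, the high-density lipoprotein (HDL) receptor Scarb1, the plasma enzyme Lcat, the sterol acyltransferases Soat1 and Soat2, the sterol carriers Npc1 and Npc1l1, and the phospholipid transfer protein Pltp. They were chosen by symbol from the 21889 genes of the deposited expression table, and all 10 were present. Liver mRNA of 36 male mice from multiple litters (strain C57BL/6 in the labels and C57BL/6J in the study's methods) was measured by RNA-Seq, with 3 mice at each of 12 ages, and no mouse was treated or mutated. The ages were late gestation (GD17.5, labelled Day -2), Day 0 (just after birth and before suckling), Days 1, 3, 5, 10, 15 and 20 (suckling), and Days 25, 30, 45 and 60 (after weaning at 21 days), and Day 60 served as the adult reference. The unit is FPKM, in which fragments are scaled to exon length and to the mapped total of the library, so that levels of different genes can be set side by side.

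In the liver, free cholesterol reaches the bile through the ABCG5-ABCG8 heterodimer at the canalicular membrane, and ABCA1 passes cholesterol and phospholipid to apolipoprotein A-I at the sinusoidal membrane to form nascent HDL. In plasma, LCAT esterifies the cholesterol of HDL and PLTP remodels the particle, after which SR-BI, the product of Scarb1, takes up its cholesteryl esters. Inside cells, NPC1 moves sterol out of late endosomes and lysosomes, and the acyltransferases encoded by Soat1 and Soat2 store it as esters.

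Summed FPKM per library ranged from 353712 to 450597, and FPKM hold no fragment counts, so no counting interval accompanies a value. The 5 hepatocyte markers (Alb, Ttr, Apoh, Ahsg and Fgb) summed to 8655 to 9437 FPKM at GD17.5, 55412 to 66115 at Day 0, 51333 to 102646 at Days 1 to 20 and 40457 to 66140 at Days 25 to 60. Fetal and newborn livers are known to hold blood-forming cells, and here the 8 erythroid markers summed to 60061 to 185227 FPKM at GD17.5 and Day 0 against 650 to 5672 at Days 25 to 60. From GD17.5 to Day 0 all 5 hepatocyte markers rose and all 8 erythroid markers fell (5 and 6 after upper quartile scaling, which makes the upper quartile of every library equal). Abcg5, Abcg8, Scarb1 and Lcat rose in the same step, and the part of these cells in their rises was not tested. In bulk liver, fewer cells of a type and less mRNA per cell cannot be told apart. In 1 Day 0 mouse (replicate 1) the 5 skeletal muscle markers summed to 1168 FPKM, and in 1 Day 60 mouse (replicate 3) the 5 exocrine pancreas markers summed to 13791 FPKM, the highest of all 36 libraries for each list. Pancreas mRNA was not confined to that mouse. The pancreas markers summed to 465 to 4628 FPKM at Day 0, 139 to 973 at Day 1, 437 to 1057 at Day 3 and 306 to 3893 at Day 15. At GD17.5 they summed to 0.497 to 1.97 FPKM and at Day 25 to 1.19 to 1.38 FPKM.

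**Figure D1:**
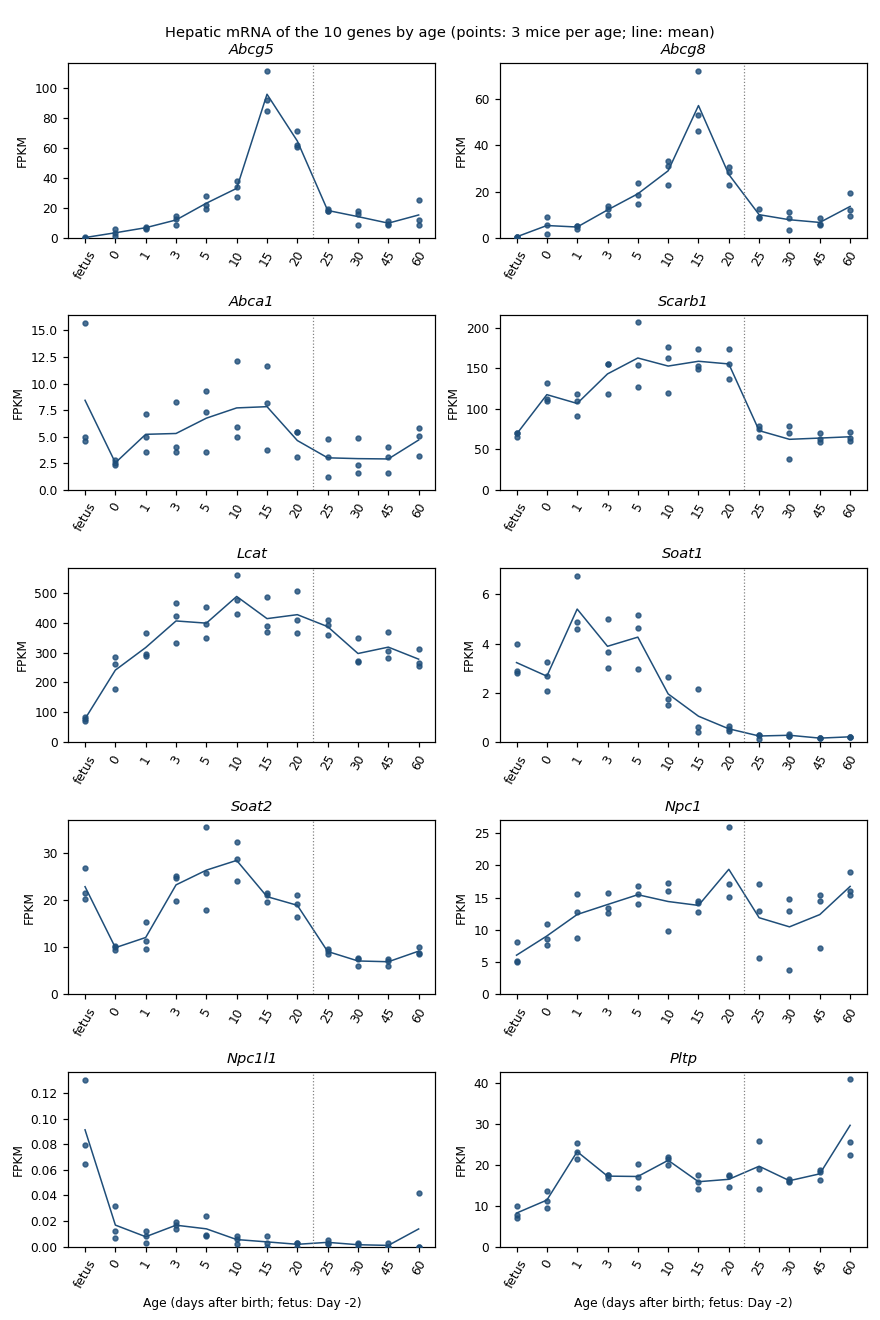
FPKM (linear axes from 0) of the 10 genes against age in days (fetus: GD17.5), with 1 point for each of 3 mice per age and a line through the age means. The dotted line separates the suckling ages from those after weaning, where Abcg5, Abcg8, Scarb1 and Soat2 stepped down between Day 20 and Day 25.

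Abcg5 and Abcg8, the obligate partners of biliary sterol secretion, had the widest ranges of the 10 genes, 487-fold and 138-fold between their highest and lowest age means, with a peak at Day 15. Both genes lie head to head on chromosome 17 (NCBI37/mm9), Abcg5 at chr17:85057574-85082351 on the minus strand and Abcg8 at chr17:85075642-85099673 on the plus strand. Their annotated models overlap by 6710 bases but share only 82 exonic bases, 2.99% of the Abcg5 exons and 2.19% of the Abcg8 exons. The library kit did not mark strand, so fragments from these shared bases cannot be assigned to either gene. The stretch between their RefSeq starts is shown because both genes are transcribed outward from it and the data below compare their mRNAs. In RefSeq (GRCm38.p6, plus strand) it is the 109 bases chr17:84683012-84683120, between the Abcg5 start on its left and the nearer of 2 listed Abcg8 starts on its right. The same letters occur 1 time on chromosome 17 of NCBI37/mm9, at chr17:85082352-85082460, within an intron of the longer Abcg8 model and in no exon. Capitals mark matches, all on the minus strand, to the core that GATA factors bind, spelled AGATAA. The last match is to a box of the form TATAAA, which binds the basal transcription machinery.
Region between the Abcg5 and Abcg8 starts: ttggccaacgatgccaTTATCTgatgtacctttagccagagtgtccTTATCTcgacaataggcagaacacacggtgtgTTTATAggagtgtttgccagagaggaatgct
AGATAA occurred 2 times in it and TATAAA 1 time, with no overlap between them, searching both strands. Of the 109 bases before the start in all 32851 RefSeq promoter windows, 0.186% held AGATAA at least 2 times, 3.98% held it at least 1 time and 5.9% held TATAAA. The nuclear receptor half-site AGGTCA was not among these letters, nor was its DR4 repeat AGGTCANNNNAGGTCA, against 6.39% and 0.0122% of the windows. These motifs were chosen after the sequence was seen, and a match is a description of letters, not of a bound site.

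Abcg5 mRNA was 0.252, 0.143 and 0.196 FPKM in the 3 fetuses (GD17.5) and 5.67, 1.06 and 3.4 FPKM in the 3 newborns (Day 0). Every newborn was above every fetus, and the Day 0 mice differed from each other more than the mice of Day 1 (6.69, 6.21 and 7.35 FPKM). From there Abcg5 rose through 8.47, 14.6 and 12.6 FPKM at Day 3, 22.1, 27.9 and 19.3 at Day 5 and 33.9, 38.1 and 27.1 at Day 10 to 111, 84.7 and 91.6 at Day 15. The Day 20 mice held 71.4, 61.9 and 60.5 FPKM and the Day 25 mice 19.2, 17.7 and 17.9. No Day 15 mouse overlapped any mouse of another age, and every Day 25 mouse was below every Day 20 mouse. The later values were 8.86, 17.7 and 15.9 FPKM at Day 30, 11.4, 9.12 and 8.83 at Day 45 and 8.87, 11.6 and 25.3 at Day 60. The mice of Days 25 to 60 thus overlapped those of Day 3, but those of Day 5 only through Day 60 replicate 3. The mean at Day 15, 95.8 ± 13.7 FPKM (SD, n = 3), compares with 0.197 ± 0.0548 FPKM at GD17.5. Along the order of the 12 age means, 6 of the 11 neighbouring ages had mice that did not overlap, including Day 15 over Day 20 and Day 20 over Day 10.

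Abcg8 followed at lower peak levels. Its mRNA was 0.497, 0.368 and 0.379 FPKM in the fetuses, 8.81, 1.75 and 5.42 in the newborns and 5.05, 5.1 and 3.88 on Day 1. It then rose through 10, 13.7 and 12.5 FPKM at Day 3, 18.6, 23.8 and 14.8 at Day 5 and 31.1, 33.1 and 22.9 at Day 10 to 72, 46.4 and 53.2 at Day 15. Every Day 15 mouse was again above every mouse of the other ages. The values were 28.7, 22.9 and 30.8 FPKM at Day 20, 9.22, 8.47 and 12.3 at Day 25, 3.55, 11.3 and 8.67 at Day 30, 8.46, 6.15 and 5.38 at Day 45 and 9.33, 11.8 and 19.6 at Day 60. Every Day 25 mouse was below every Day 20 mouse, but only 2 of the 11 neighbours in the order of means did not overlap (Day 15 over Day 10, and Day 1 over GD17.5).

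Differences were tested by a limma fit of log2(FPKM + 1) to all 12 ages, p-values were adjusted by Benjamini-Hochberg over the 11149 tested genes, and log2 fold changes below are on that scale. Abcg5 rose by 1.71 (SE 0.31; adjusted p = 4.24e-05) from GD17.5 to Day 0 and by 0.98 (SE 0.31; adjusted p = 0.0169) from Day 0 to Day 1, although the latter was 0.51 (adjusted p = 0.189) without Day 0 replicate 2, the lowest newborn. Abcg8 rose by 1.98 (SE 0.33; adjusted p = 1.94e-05) at birth, and from Day 0 to Day 1 its difference was 0.02 (SE 0.33; adjusted p = 0.975), or -0.49 (adjusted p = 0.248) without the same mouse. Between Day 20 and Day 25, across weaning, Abcg5 fell by 1.76 (SE 0.31; adjusted p = 0.000211) and Abcg8 fell by 1.37 (SE 0.33; adjusted p = 0.00817). At GD17.5 Abcg5 was lower than at Day 60 by a log2 change of -3.63 (SE 0.31; adjusted p = 1.27e-11), which widened to -5.56 with a pseudocount of 0.1, since adding 1 FPKM compresses low values. Over the 11 ages set against Day 60, Abcg5 was higher at 3 (Days 10, 15 and 20) and lower at 3 (GD17.5, Day 0 and Day 1; also Day 3 after upper quartile scaling), and Abcg8 was higher at the same 3 and lower at 4, with Day 45 added. Without Day 60 replicate 3, Abcg5 was higher at 5 ages (Days 5 and 25 added) and lower at 2, and without Day 60 replicate 1, Abcg8 was higher only at Day 15. In Day 60 replicate 3, the mouse with the most pancreas mRNA, Abcg5, Abcg8, Lcat and Pltp were each the highest of that age. In the same mouse Abca1, Scarb1, Soat1, Soat2 and Npc1 were each the lowest of that age. The part of pancreas in those values was not tested.

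The proportion of the partners shifted with age. In the 3 mice of GD17.5 the ratio of Abcg8 to Abcg5 FPKM was 1.94 to 2.58, and in those of Day 0 it was 1.55 to 1.65. Abcg8 was thus the higher mRNA in every mouse before suckling. At GD17.5 this ratio rests on low values, since Abcg5 was at most 0.252 FPKM and Abcg8 at most 0.497 FPKM. The ratio was 0.529 to 0.820 at Day 1, 0.937 to 1.18 at Day 3 and 0.845 to 0.917 at Day 10, so it did not fall steadily. It was 0.548 to 0.649 at Day 15 and 0.370 to 0.509 at Day 20, and it returned to 0.775 to 1.05 at Day 60. Abcg5 was the higher mRNA in 27 of 36 mice, which included every mouse of Days 1, 5, 10, 15, 20, 25, 30 and 45. No test was run on this ratio.

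**Figure D2:**
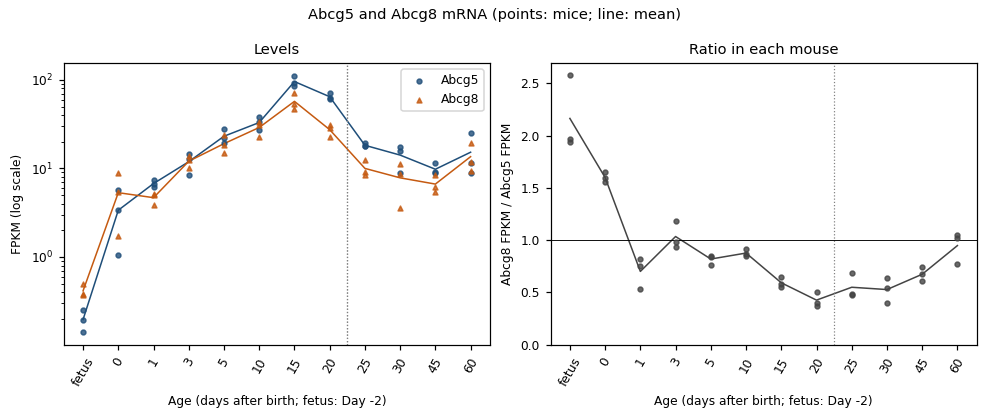
Left, Abcg5 (circles) and Abcg8 (triangles) FPKM on a log axis against age, 3 mice per age with a line through the means. Right, the ratio of Abcg8 to Abcg5 FPKM in each mouse, which was above 1 (horizontal line) in all mice of GD17.5 and Day 0 and had its lowest median, 0.401, at Day 20. Both mRNAs were below 1 FPKM in all mice of GD17.5.

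Npc1l1, which takes up sterol at the apical membrane and opposes ABCG5-ABCG8 there, was barely detected in these livers. It was highest in the fetuses, at 0.0647, 0.13 and 0.0790 FPKM, and every later mouse was lower. From Day 0 on it did not exceed 0.0416 FPKM, and it was listed at 0 in 7 of 36 mice. It did not pass the filter, a mean of 1 FPKM or more at any age, and was not tested, so 9 of the 10 genes entered the tests. Its gene lies at chr11:6111016-6130146 (NCBI37/mm9).

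Of the acyltransferases, Soat1 (ACAT1, found in most cell types and abundant in macrophages) declined from Day 5 to well below 1 FPKM, while Soat2 (ACAT2, the hepatocyte and enterocyte enzyme) stepped down at birth and again at weaning. Soat1 lies at chr1:158358239-158404459 and Soat2 at chr15:101980957-101993905 (NCBI37/mm9). Soat1 in the fetuses was 3.98, 2.82 and 2.9 FPKM, in the newborns 2.69, 3.27 and 2.08, and on Day 1, its highest age, 6.76, 4.86 and 4.58. It was 4.65, 2.98 and 5.16 FPKM at Day 5, 2.63, 1.5 and 1.75 at Day 10, 2.15, 0.619 and 0.402 at Day 15 and 0.666, 0.519 and 0.452 at Day 20. The decline thus ran through the suckling period, and at Day 15 replicate 1 stood apart from the other 2 mice. From Day 25 to Day 60 the mice ranged over 0.147 to 0.339 FPKM, all below every earlier mouse. Soat1 rose by 0.80 (SE 0.21; adjusted p = 0.00542) from Day 0 to Day 1 and was lower by a log2 change of -1.44 (SE 0.10; adjusted p = 6.08e-14) at Days 25 to 60 than at Days 1 to 20. The latter was -2.74 with a pseudocount of 0.1, since the adult level is far below 1 FPKM. Against Day 60, 7 of 11 ages were higher, GD17.5 to Day 15.

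Blood and non-parenchymal cell markers fell with Soat1 after weaning, a comparison in which 68.1% of all genes fell (45.3% after upper quartile scaling). Of the 10 macrophage markers, 9 fell between Days 1 to 20 and Days 25 to 60 (7 after the scaling), and the sum of the 10 ranged over 177 to 263 FPKM at GD17.5 and Day 0, 121 to 407 at Days 1 to 20 and 111 to 227 at Days 25 to 60. The 7 neutrophil markers all fell too, from 8.29 to 3043 FPKM at Days 1 to 20 to 0.937 to 7.11 FPKM, as did the 8 erythroid, 4 B lineage, 4 megakaryocyte and 6 stellate cell markers (5 of these last after the scaling). Of the 6 sinusoidal endothelium markers, 5 fell (5 fell and 1 rose after the scaling), and all 3 tested biliary markers fell. Of the 5 hepatocyte markers, 3 fell and 1 rose (1 fell and 2 rose after the scaling). At the earlier steps the blood and non-parenchymal markers did not all follow Soat1. From Day 0 to Day 1, where Soat1 rose, 7 of the 10 macrophage markers rose (5 after the scaling), but 7 of the 8 erythroid and 3 of the 7 neutrophil markers fell and none of either rose. From GD17.5 to Day 0, where Soat1 was not called, all 8 erythroid markers fell (6 after the scaling). In that step 2 of the 10 macrophage markers rose and 3 fell (3 and 2 after the scaling). At Days 1 to 20 against GD17.5 and Day 0, Soat1 was again not called. There 5 macrophage markers rose and 0 fell (8 and 0 after the scaling), while all 8 erythroid and all 7 neutrophil markers fell. None of these markers was listed at 0 in all mice. Their part in the Soat1 difference was not tested.

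Soat2 in the fetuses was 20.3, 26.7 and 21.5 FPKM and in the newborns 10, 10.4 and 9.38. Every newborn was below every fetus, and Soat2 fell by 1.12 (SE 0.17; adjusted p = 6.52e-06). It was 11.3, 15.3 and 9.63 FPKM at Day 1, 25.7, 35.6 and 17.8 at Day 5 and 28.8, 32.4 and 24.1 at Day 10, the highest age. Between Day 20 (21, 16.5 and 19.2 FPKM) and Day 25 (9.64, 9.16 and 8.54 FPKM) it fell by 0.97 (SE 0.17; adjusted p = 0.000313), with no overlap, and the mice of Days 25 to 60 held 6.09 to 10.1 FPKM. Against Day 60, 6 ages were higher, GD17.5 and Days 3 to 20. As a share of Soat1 plus Soat2 FPKM, Soat2 had a median of 88.1% in the fetuses, 67.8% on Day 1 and 97.6% on Day 60. The share was lowest at Day 1 (62.6% to 75.9%) and at least 90.8% in every mouse from Day 10 on.

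**Figure D3:**
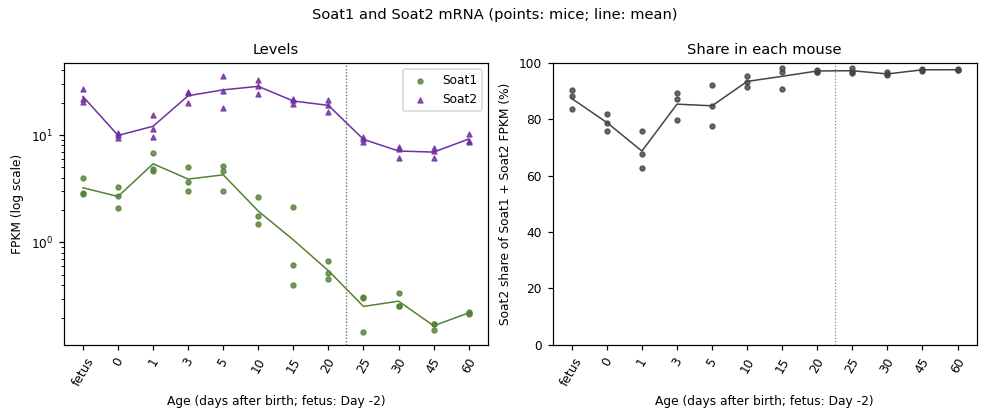
Left, Soat1 (circles) and Soat2 (triangles) FPKM on a log axis against age, 3 mice per age with a line through the means. Right, the Soat2 share (%) of Soat1 plus Soat2 FPKM in each mouse, with its lowest median, 67.8%, at Day 1.

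Scarb1, the HDL receptor (chr5:125757457-125821464, NCBI37/mm9), was high from birth to the end of suckling and low on either side. The fetuses held 70.7, 70.1 and 65.8 FPKM and the newborns 109, 112 and 131. Every newborn exceeded every fetus, a rise of 0.76 (SE 0.20; adjusted p = 0.00205). It was 110.3, 118 and 91.4 FPKM at Day 1, 154, 207 and 127 at Day 5, 153, 149 and 174 at Day 15 and 155, 137 and 174 at Day 20, and then 75, 66 and 78.6 at Day 25 and 71.5, 64.6 and 60.9 at Day 60. The mice of Day 0 to Day 20 (91.4 to 207 FPKM) did not overlap those of Day 25 to Day 60 (38.1 to 78.9 FPKM). From Day 20 to Day 25 Scarb1 fell by 1.07 (SE 0.20; adjusted p = 0.000395), and all 7 ages from Day 0 to Day 20 were higher than Day 60 (6 after upper quartile scaling, Day 1 being lost). GD17.5 was not called different from Day 60 by the deposited FPKM, at 0.07 (SE 0.20; adjusted p = 0.757), but was lower after upper quartile scaling, by a log2 change of -0.53 (adjusted p = 0.00417). Pdzk1, the adaptor that holds SR-BI at the hepatocyte surface, was not called between Day 20 and Day 25. Its mean was 42.6 ± 7.18 FPKM (SD, n = 3) on Day 5, 14.4 ± 1.15 on Day 20 and 15.1 ± 1.45 on Day 25, with a difference between those last ages of 0.07 (SE 0.15; adjusted p = 0.877). Over the longer spans it was lower at Days 25 to 60 than at Days 1 to 20, by a log2 change of -0.85 (SE 0.07; adjusted p = 3.20e-12), as Scarb1 was.

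Lcat (chr8:108463451-108467282, NCBI37/mm9) was the most abundant of the 10 mRNAs at every age. The fetuses held 72.6, 84.7 and 77.8 FPKM, the newborns 261, 177 and 287 and the Day 1 mice 295, 367 and 289. The fetuses lay below all other mice, and Lcat rose by 1.58 (SE 0.17; adjusted p = 2.21e-08) at birth. It reached 476, 560.4 and 428 FPKM on Day 10, and was 409, 364 and 508 on Day 20 and 392, 408 and 360.1 on Day 25. Across weaning the mice overlapped, with a difference of -0.13 (SE 0.17; adjusted p = 0.763). Against Day 60, 6 ages were higher (Days 3 to 25) and GD17.5 lower, with 3 higher when Day 60 replicate 1 was left out. After upper quartile scaling 4 ages were higher, Days 3 and 5 being lost, and 2 were lower, GD17.5 and Day 0. Apart from GD17.5 and Day 0, no neighbours in the order of means were without overlap. Days 25 to 60 were lower than Days 1 to 20 by a log2 change of -0.35 (SE 0.08; adjusted p = 0.000255), but this was 0.07 (adjusted p = 0.466) after upper quartile scaling, so its direction depends on how libraries are scaled.

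Pltp (chr2:164665018-164683211, NCBI37/mm9) rose early and again in the adult. The fetuses held 7.68, 7.15 and 9.88 FPKM, the newborns 13.7, 11.2 and 9.35 and the Day 1 mice 21.5, 25.3 and 23.1. Every Day 1 mouse was above every earlier mouse, and Pltp rose by 0.98 (SE 0.18; adjusted p = 0.000189) from Day 0 to Day 1. From Day 3 to Day 45 the mice ranged over 14.2 to 26 FPKM, and at Day 60 they held 22.4, 25.7 and 41.1 FPKM. Of the 11 ages, 9 were lower than Day 60, and the exceptions were Days 1 and 10. After upper quartile scaling 9 ages were lower again, but Days 1 and 10 were among them and Days 25 and 45 were not. The highest Day 60 mouse is replicate 3 named above, and without it 7 ages were lower, Days 25 and 45 no longer being called. Pltp shares 495 exonic bases, 19.3% of its exons, with Ctsa on the opposite strand, and fragments from them cannot be assigned to either gene.

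Abca1, which loads apolipoprotein A-I (chr4:53043659-53172767, NCBI37/mm9), was low and varied widely within ages. The fetuses held 15.7, 4.58 and 5.02 FPKM and the newborns 2.33, 2.85 and 2.51. Fetus replicate 1 was the highest of all 36 mice. Abca1 fell by 1.21 (SE 0.43; adjusted p = 0.0203) from GD17.5 to Day 0, but by 0.70 (adjusted p = 0.197) without that fetus, and the call was also lost without Day 0 replicate 1 (adjusted p = 0.0517) and after upper quartile scaling (adjusted p = 0.0632). The suckling mice ranged over 3.09 to 12.2 FPKM and those of Days 25 to 60 over 1.2 to 5.84 FPKM, with overlap. Their difference was -0.72 (SE 0.20; adjusted p = 0.00179), or -0.40 (adjusted p = 0.0636) after upper quartile scaling. No age differed from Day 60 (smallest adjusted p = 0.256), and no neighbours in the order of age means were without overlap. In 9 of 12 ages the mouse numbered 1 was the highest.

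Npc1, the lysosomal sterol exporter (chr18:12348202-12394909, NCBI37/mm9), was also spread widely within ages. The fetuses held 8.11, 5.14 and 5.0 FPKM, the newborns 8.63, 7.62 and 10.9, the Day 20 mice 15.1, 17.1 and 25.9 and the Day 60 mice 16, 18.9 and 15.3. GD17.5 was the only age that differed from Day 60, by a log2 change of -1.35 (SE 0.35; adjusted p = 0.00109), but with upper quartile scaling 4 ages were lower, GD17.5 and Days 0, 1 and 3. The mice of Day 25 (12.9, 5.61 and 17.1 FPKM) and Day 30 (3.75, 12.9 and 14.8 FPKM) had the largest SDs of the 12 ages, and the difference of Day 25 from Day 20 was -0.74 (SE 0.35; adjusted p = 0.239). Npc2, the soluble partner that hands sterol to NPC1, ran differently, with means of 43.6 ± 0.982 FPKM (SD, n = 3) on Day 0, 19.7 ± 1.3 on Day 10 and 19.7 ± 4.76 on Day 60. It was lower at Days 1 to 20 than before suckling by a log2 change of -0.59 (SE 0.08; adjusted p = 8.16e-08), whereas Npc1 was higher by 0.90 (SE 0.20; adjusted p = 0.000282).

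Counted together, 8 of the 9 tested members differed from Day 60 at 1 age or more, against 90.7% of all tested genes, so this count does not set them apart. At GD17.5 against Day 60, 2 members were higher (Soat1 and Soat2) and 5 lower (Abcg5, Abcg8, Lcat, Npc1 and Pltp), where 75.1% of all genes were called, 56.4% higher and 18.6% lower. At Day 0 against GD17.5, 4 were higher (Abcg5, Abcg8, Scarb1 and Lcat) and 2 lower (Abca1 and Soat2), against 13.1% and 41.4% of all genes (54.6% in either direction). At Day 1 against Day 0, 3 were higher (Abcg5, Soat1 and Pltp) and 0 lower, against 23.7% and 7.88% (31.6% in either direction), and at an unadjusted p under 0.05 the members lower also numbered 0. The balance of all genes depends on scaling in these 3 comparisons. Lower calls made up 24.8%, 75.9% and 25.0% of all calls by the deposited FPKM and 41.6%, 56.5% and 45.0% after upper quartile scaling, under which 2 members were higher and 6 lower, 5 higher and 1 lower, and 3 higher and 0 lower.

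In the suckling period (the mean of Days 1 to 20 against that of GD17.5 and Day 0), 7 members were higher, against 27% of all genes, and none was lower (none at an unadjusted p under 0.05 either), against 40.7% of all genes (67.8% in either direction). The exceptions were Abca1 at 0.33 (SE 0.25; adjusted p = 0.251) and Soat1 at -0.23 (SE 0.12; adjusted p = 0.0927). The median of the 9 was 0.86, and that of all genes was -0.10. The largest rises were Abcg5 at 3.70 (SE 0.18; adjusted p = 4.56e-17), Abcg8 at 2.85 (SE 0.19; adjusted p = 1.27e-13) and Lcat at 1.56 (SE 0.10; adjusted p = 4.17e-14). Upper quartile scaling gave the same count of 7 higher members, with a median of 1.00 for the 9 and 0.0026 for all genes. In the same comparison all 5 hepatocyte markers and 5 of the 6 sinusoidal endothelium markers rose, also after that scaling. All 8 erythroid and all 7 neutrophil markers fell under both. The part of these cells in the rises of the members, and of the lists below, was not tested.

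After weaning (the mean of Days 25 to 60 against that of Days 1 to 20), 7 members were lower, but so were 68.1% of all genes, and 11.7% were higher (79.7% in all). The median of the 9 was -0.95 and that of all genes was -0.39. The lower members were Soat1, Soat2 at -1.27 (SE 0.08; adjusted p = 1.58e-14), Scarb1 at -1.13 (SE 0.09; adjusted p = 3.02e-12), Abcg8 at -1.04 (SE 0.15; adjusted p = 4.75e-07), Abcg5 at -0.95 (SE 0.14; adjusted p = 5.62e-07), Abca1 and Lcat, while Npc1 was at -0.28 (SE 0.16; adjusted p = 0.115) and Pltp at 0.12 (SE 0.08; adjusted p = 0.192). Of all calls, 85.4% were lower by the deposited FPKM and 63.7% after upper quartile scaling, which moved the median of all genes to -0.13. Under that scaling 5 members were lower, Abcg5 at -0.57 (adjusted p = 0.000269), Abcg8 at -0.68 (adjusted p = 6.59e-05), Scarb1 at -0.72 (adjusted p = 5.82e-10), Soat1 at -1.27 (adjusted p = 1.92e-12) and Soat2 at -0.89 (adjusted p = 4.21e-12), and 1 was higher, Pltp at 0.51 (adjusted p = 1.45e-05).

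The step from Day 20 to Day 25 alone was less common among all genes, of which 3.26% fell and 3.94% rose (7.19% in all). Of the 9 members, 4 fell in it (Abcg5, Abcg8, Scarb1 and Soat2) and none rose by this limma test, under the deposited FPKM and both other scalings alike. At an unadjusted p under 0.05 the members lower numbered 5, with Npc1 added, and the members higher 0. The 4 falls, of 0.97 to 1.76 on the log2 scale, compare with a median of -0.07 over all genes. The other 5 members lay between -0.74 (Npc1) and 0.21 (Pltp), and none of them was called. In this step 2 of the 5 hepatocyte markers fell too and 0 rose (1 and 0 after upper quartile scaling). The part of hepatocytes in the 4 falls was not tested.

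**Figure D4:**
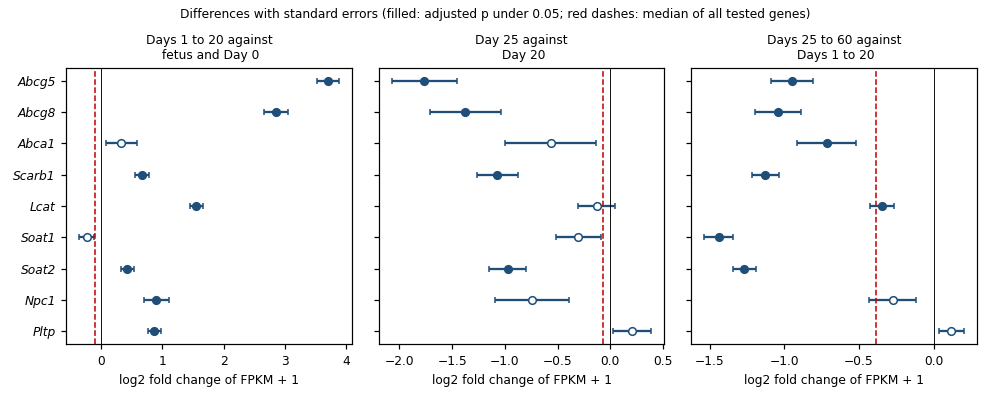
Log2 fold change of FPKM + 1 with its standard error (bars) for the 9 tested members in 3 comparisons, filled where adjusted p was under 0.05, with the median of all tested genes as a red dashed line and 0 as a black line. Abcg5 and Abcg8 lay farthest to the right for Days 1 to 20 against the fetus (GD17.5) and Day 0, and Abcg5, Abcg8, Scarb1 and Soat2 are the filled points of Day 25 against Day 20.

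The surrounding pathway was read from 6 gene lists. All 11 tested genes of the HDL particle and its remodelling rose in the suckling period over GD17.5 and Day 0, also after upper quartile scaling, where 27% of all genes rose (33.3% after the scaling), with a list median of 1.89 against -0.10 for all genes. All 5 hepatocyte markers rose in that comparison as well. After weaning 5 of them rose and 5 fell (5 and 2 after the scaling), where 11.7% of all genes rose and 68.1% fell (25.8% and 45.3% after the scaling). Apoc3, an inhibitor of lipoprotein lipase, rose most, by 3.38 (SE 0.15; adjusted p = 2.36e-18), and Apoa1, the main protein of HDL, fell most, by 1.04 (SE 0.10; adjusted p = 3.84e-10). Apoa1 had a mean of 20797 ± 1820.5 FPKM (SD, n = 3) on Day 10 and of 6299.7 ± 1242 on Day 60. None of the 11 was called between Day 20 and Day 25 (by limma, with 1 higher and 3 lower at an unadjusted p under 0.05).

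Of 8 genes of neutral lipid ester synthesis, hydrolysis and export, 7 rose and 0 fell in the suckling period (8 and 0 at an unadjusted p under 0.05, and 8 and 0 called after upper quartile scaling), led by Apob, the structural protein of very-low-density lipoprotein. After weaning 3 of them fell and 0 rose by the deposited FPKM, but 5 rose and 0 fell after upper quartile scaling, so no direction is given. The same holds for the 12 genes of lysosomal and intracellular sterol traffic (4 higher and 5 lower as deposited, 7 higher and 0 lower after scaling), the 8 other ABC transporters of sterols, phospholipids and bile salts (1 higher and 3 lower, then 5 and 2) and the 10 genes of the liver X receptor (LXR) list (2 higher and 4 lower, then 6 and 2). Scp2, a peroxisomal sterol carrier, rose by 1.62 (SE 0.14; adjusted p = 2.83e-11) and by 2.03 (adjusted p = 8.69e-14) after that scaling. Abcg1, which passes cholesterol to HDL and is best known in macrophages, was lower after weaning by a log2 change of -0.68 (SE 0.08; adjusted p = 6.64e-09), or -0.52 (adjusted p = 7.06e-07) with the scaling. Abcb4, the canalicular phospholipid floppase, had means of 25 ± 3.33 FPKM (SD, n = 3) on Day 15 and 22 ± 4.03 on Day 25, and its difference from Day 20 to Day 25 was -0.22 (SE 0.24; adjusted p = 0.701).

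LXRα (Nr1h3), a sterol-sensing receptor for which Abcg5, Abcg8 and Abca1 are established targets, was not called lower at weaning. Its mean was 22.4 ± 9.0 FPKM (SD, n = 3) on Day 0, 52.4 ± 11.5 on Day 15 and 68.8 ± 9.85 on Day 25. Its difference from Day 20 to Day 25 was 0.32 (SE 0.23; adjusted p = 0.506), and it was higher at Days 25 to 60 than at Days 1 to 20 by 0.51 (SE 0.10; adjusted p = 5.55e-05). LXRβ (Nr1h2) had means of 24.3 ± 2.85 FPKM in the fetuses and 12.7 ± 1.92 on Day 60, and its difference across weaning was -0.01 (SE 0.16; adjusted p = 0.996). Mylip, an LXR target whose product degrades the low-density lipoprotein receptor, did fall between Day 20 and Day 25, by 1.11 (SE 0.20; adjusted p = 0.000305). It was the only gene of the 10 in the LXR list called in this step, with 0 higher and 9 not called. After upper quartile scaling 1 was higher and 1 lower. Of all genes, 3.26% fell and 3.94% rose in this step by the deposited FPKM. Whether LXR activity changed was not tested. Of the 8 genes of the lipoprotein receptor list, which holds Mylip too, 2 rose and 5 fell after weaning (2 and 4 after upper quartile scaling), where the share that fell was close to that of all genes, 68.1% (45.3% after the scaling).

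Likeness of course was measured as Pearson's r over the 12 age means among all tested genes, as a description without a test, since the points share libraries. Abcg5 was the gene most like Abcg8 (r = 0.967), and Abcg8 was the third most like Abcg5, behind Tmem63b (r = 0.983) and Echs1 (r = 0.976). Pcca (r = 0.962) followed Abcg5 in likeness to Abcg8. The genes most like Scarb1 were Slc39a14 (r = 0.976) and Flt4 (r = 0.971), those most like Lcat were F10 and Nr1i3 (both r = 0.981), and those most like Soat2 were Lrrk1 (r = 0.961) and Alcam (r = 0.951). Soat1 ran most like Gpr137b-ps (r = 0.994) and Arhgap30 (r = 0.993), Abca1 like Alcam (r = 0.952) and Fert2 (r = 0.930), Npc1 like Ppap2b (r = 0.960) and Foxa2 (r = 0.940), and Pltp like Slc38a4 (r = 0.933) and Gas6 (r = 0.926). Among the 9 tested members, only Abcg5 and Abcg8 were within each other's nearest 3 genes.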

How the data were processed

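Per the labels and the study's methods, polyadenylated RNA from whole livers was sequenced as paired ends with an unstranded kit. The authors aligned the reads to NCBI37/mm9 with TopHat 1.2.0 and made the deposited FPKM per Ensembl gene with Cufflinks 1.0.3, 1 column per mouse. FPKM carry no counts, so precision rests on 3 mice per age. Per the study's methods the 3 mice of each age were picked at random out of multiple litters, but the litter of each mouse is not given. The p-values measure the spread between these mice. Here, log2(FPKM + 1) of the 11149 genes whose age mean reached 1 FPKM at any age was fitted with limma 3.58.1 (R 4.3.3), with a mean per age, a mean-variance trend, no covariate and Benjamini-Hochberg adjustment. "At least 1 age against Day 60" was adjusted over all genes and all 11 ages jointly. Tests on simulated data recovered 99.5% of 200 altered genes for Days 25 to 60 against Days 1 to 20, and 90.5% for Day 25 against Day 20. The latter held 99% of 4-fold and 82% of 2-fold changes. False calls made up 3.40% and 6.22% of the calls in these comparisons. Only 200 of 11149 genes were altered, whereas 79.7% of the real genes were called for Days 25 to 60 against Days 1 to 20. These rates thus do not describe the real data in full. The members and the 6 lists were chosen with earlier results of these data known. The text names all 10 members, the genes of the lists with the largest changes or with a direct partner role, and the 2 genes most like each member. A single gene of the lists enters its list's counts and is otherwise not reported here. Positions come from GENCODE M1 (NCBI37/mm9), and 7 of 10 members matched a RefSeq promoter window. Alternatives were pseudocount, filter, scaling, trend, replicate block, Dunnett's test and leaving out mice.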

Additional observations from a re-analysis of the deposited data

How the results depend on the processing

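The counts of members called stayed within 1.5 times their values under every alternative fitted to all 36 mice. Leaving out each mouse in turn gave 8 to 8 members for any age against Day 60, 7 to 7 for GD17.5 against Day 60, 5 to 7 for Day 0 against GD17.5, 2 to 4 for Day 1 against Day 0, 7 to 8 for Days 1 to 20 against GD17.5 and Day 0, 7 to 8 for Days 25 to 60 against Days 1 to 20 and 4 to 4 for Day 25 against Day 20. Without Day 0 replicate 2, Abcg5 was no longer called at Day 1. Upper quartile scaling reversed the sign of Scarb1 at GD17.5 against Day 60 (-0.53), Soat1 at Day 0 against GD17.5 (0.0020), Abcg8 at Day 1 against Day 0 (-0.10), and Lcat (0.066) and Npc1 (0.10) at Days 25 to 60, and scaling to a fixed sum reversed Scarb1 at GD17.5 (-0.028). Leaving out a mouse moved Abcg8 at Day 1 over -0.49 to 0.43, and at Day 25 moved Lcat over -0.24 to 0.0014 and Pltp over -0.0021 to 0.41. None of these was called except Scarb1 under the first scaling; the cause was not tested. Dunnett's test gave 8 and 7 members in the comparisons with Day 60. Without the libraries highest in muscle and pancreas genes, an alternative added after seeing the data, Day 0 against GD17.5 lost Abca1. Other libraries with pancreas mRNA stayed in that fit, including every library of Days 1, 3 and 15 and the highest of Day 20. Mice that share a replicate number did not deviate together throughout (median r 0.126, from -0.680 to 0.829), although mice with other numbers had a lower median (-0.0476), and 19 of 36 were closest to their own number among 3. The replicate block changed 1 count, from 7 to 8 for Days 1 to 20 against GD17.5 and Day 0. The member added was Soat1, which was lower by a log2 change of -0.23 (adjusted p = 0.0490). Soat1 was also called lower in that comparison with a pseudocount of 0.1 (-0.46, adjusted p = 0.0425) and without Day 15 replicate 1 (-0.29, adjusted p = 0.00947).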
